A study of Mus musculus with 9 samples.

Results

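The MHC class II presentation genes were followed by symbol across splenic type 2 dendritic cells of young and adult mice. They are 10 of the 24054 genes listed: the chains of the classical class II molecules (H2-Aa, H2-Ab1 and H2-Eb1), the invariant chain Cd74, the chains of the peptide exchange factor DM (H2-DMa, H2-DMb1 and H2-DMb2), the chains of its inhibitor DO (H2-Oa and H2-Ob) and the transactivator Ciita. The list was drawn up by gene name, with earlier results of these data known. RNA was sequenced from 9 libraries of C57BL/6 mice, all of the genotype Clec9a-Cre/Cre Rosa-tdTomato/tdTomato, in which a cell turns TOM+ once it or a progenitor has expressed Clec9a, the gene of the receptor DNGR-1. The groups were TOM+ cDC2 from mice at postnatal day 8 (n = 3), TOM- DC2 from mice of the same age (n = 3), and TOM+ cDC2 from adult mice of 8 or 9 weeks (n = 3). All cells were live, autofluorescence-negative, MHCII+, CD11c+ and CD11b+. Every cell was thus selected for class II protein on its surface, so cells without it were not measured. Each library of young mice came from several spleens put together ahead of the sort.

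MHC class II molecules display peptides from endosomes to CD4+ T cells, and dendritic cells are the cells best known for priming T cells in this way. An alpha and a beta chain assemble around the invariant chain, which steers them to endosomes and is there cut down by proteases to the fragment CLIP. DM exchanges CLIP for other peptides and DO holds DM back. CIITA, which binds no DNA itself, switches these genes on through factors bound to the X and Y boxes of their promoters. C57BL/6 mice lack a functional I-E alpha chain, so the H2-Eb1 product has no partner to reach the surface with.

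The X and Y boxes are the sequence these genes share, and they are shown for the 6 members in which the Y box core, GATTGG, was found on the coding strand within 150 bases before the start of the gene. Of the members, 7 had a promoter window (250 bases before to 50 bases after the start) in RefSeq on GRCm38.p6. H2-Ab1, Cd74 and Ciita had none in that table. Each stretch below runs 5′ to 3′ along the coding strand over 66 bases. Capitals mark GATTGG and, upstream of it, the letters AGNAAC of the X box where they were present:
H2-Eb1: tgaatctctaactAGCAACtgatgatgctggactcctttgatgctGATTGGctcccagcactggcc
H2-Aa: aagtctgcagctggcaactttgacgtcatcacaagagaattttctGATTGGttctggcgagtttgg
H2-Oa: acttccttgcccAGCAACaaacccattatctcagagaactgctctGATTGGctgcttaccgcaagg
H2-Ob: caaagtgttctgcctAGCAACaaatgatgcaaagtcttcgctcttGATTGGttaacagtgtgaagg
H2-DMb1: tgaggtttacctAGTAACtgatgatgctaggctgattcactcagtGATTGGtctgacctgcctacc
H2-DMb2: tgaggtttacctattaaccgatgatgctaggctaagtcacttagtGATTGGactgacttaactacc
The stretches lie at chr17:34305762-34305827 for H2-Eb1, chr17:34092290-34092355 for H2-Oa, chr17:34238802-34238867 for H2-Ob, chr17:34153084-34153149 for H2-DMb1 and chr17:34145113-34145178 for H2-DMb2, all on the plus strand, and chr17:34287852-34287917 on the minus strand for H2-Aa. The Y box core began 60 bases before the start in H2-Eb1, 49 in H2-Aa, 44 in H2-Oa, 58 in H2-Ob, 62 in H2-DMb1 and 91 in H2-DMb2. H2-DMa had 2 windows, and GATTGG was found in only 1 of them, farther than 150 bases from the start. Over all 32851 windows, 8.71% held GATTGG on the coding strand and 16.1% on either strand. AGNAAC followed by GATTGG after 10 to 35 bases, a pattern worded after reading these windows, was found in 4 of the 7 members and in 0.225% of all windows on the coding strand. The gap was 24 bases in H2-Ob, 26 in H2-Eb1 and 27 in H2-Oa and H2-DMb1. Of the X box forms fixed earlier, AGCAACAG was found in 0 of the 7 members, and in 2.26% of all windows on either strand, while AGNNACNG followed by GATTGG was found in 2 members, H2-DMb1 and H2-Eb1, and in 0.286% of all windows on the coding strand. These are letter matches and not binding data. The stretches of H2-DMb1 and H2-DMb2, which are neighbouring copies of one gene, agreed at 57 of 66 bases (86.4%).

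The 10 genes were among the most abundant messages of these cells. In TPM, which scales reads by transcript length and library total, they made up 8.33%, 8.80% and 8.54% of all transcripts in the 3 libraries of young TOM+ cDC2. The share was 7.91%, 8.48% and 8.21% in young TOM- DC2 and 12.7%, 12.9% and 12.7% in adult TOM+ cDC2. Every adult library was thus above every young library, and the young groups overlapped. Cd74 was the top gene of each of the 9 libraries, by counts and by TPM.

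**Figure D1:**
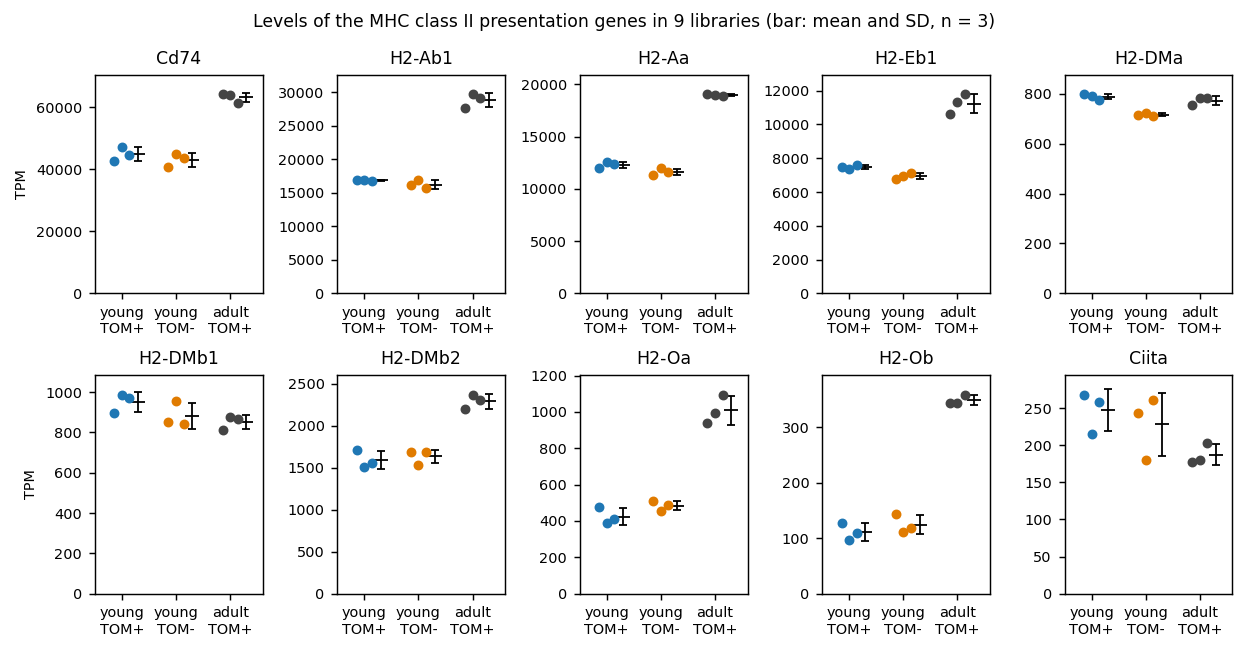
Level of each of the 10 genes in TPM (vertical axes, each from 0) in every library. Points are libraries, coloured by group, and bars give the mean and SD of 3 libraries. Adult libraries stand above all young ones for Cd74, the classical chains, H2-DMb2, H2-Oa and H2-Ob, whereas H2-DMa, H2-DMb1 and Ciita show no such rise.

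The first comparison asked how the genes of cells with a Clec9a history differ between early life and adulthood. Of the 10 members, 7 were lower in young than in adult TOM+ cDC2 and none was higher at an adjusted p under 0.05 (edgeR's quasi-likelihood test over all genes with Benjamini-Hochberg adjustment), where 19.5% of the 14452 genes tested were lower. Of these, 2 members, H2-Oa and H2-Ob, also passed a log2 fold change of 1, which 6.86% of all genes did in that direction. The median log2 fold change of the members was -0.70, against 0.05 for all genes. Young TOM- DC2 differed from the same adult libraries in a like way: 8 of 10 members were lower, against 16.9% of genes tested, and H2-Oa and H2-Ob passed the larger threshold, against 4.78%. The median was -0.78, against 0.07. In such bulk libraries fewer cells of a kind and less RNA per cell cannot be told apart.

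Cd74, the invariant chain, had 42771, 47229 and 44556 TPM in young TOM+ cDC2, 40692, 45005 and 43595 TPM in young TOM- DC2 and 64182, 63942 and 61473 TPM in adults. All adult libraries exceeded all young ones. The fitted difference, on normalised counts as for all fold changes here, was a log2 fold change of -0.63 ± 0.09 (SE, adjusted p = 0.00013 by edgeR) in young TOM+ cDC2, 1.55-fold lower than in adults. In young TOM- DC2 it was -0.72 ± 0.09 (adjusted p = 6e-05 by edgeR).

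The classical chains moved together, and somewhat more than Cd74. H2-Ab1, the beta chain of I-A, had 16833, 16868 and 16790 TPM in young TOM+ cDC2, 16082, 16893 and 15674 TPM in young TOM- DC2 and 27691, 29642 and 29147 TPM in adults. It was 1.86-fold lower in young TOM+ cDC2 (log2 fold change -0.90 ± 0.07, adjusted p = 2.7e-06 by edgeR) and 1.98-fold lower in young TOM- DC2 (-0.98 ± 0.07, adjusted p = 2.2e-06). The second value lies just inside the threshold of 1, which H2-Ab1 passed in 6 alternatives, among them RSEM expected counts and a fit of only the groups compared. H2-Aa, the I-A alpha chain, had 11964, 12532 and 12346 TPM in young TOM+ cDC2, 11360, 11943 and 11602 TPM in young TOM- DC2 and 19025, 18956 and 18895 TPM in adults. The adult libraries were close to each other and far above the young ones. Its log2 fold changes were -0.76 ± 0.08 in young TOM+ cDC2 (adjusted p = 1.4e-05 by edgeR) and -0.86 ± 0.08 in young TOM- DC2 (adjusted p = 7.4e-06). H2-Eb1, the I-E beta chain, had 7488, 7358 and 7630 TPM in young TOM+ cDC2, 6786, 6970 and 7124 TPM in young TOM- DC2 and 10621, 11319 and 11780 TPM in adults. It was lower by a log2 fold change of -0.71 ± 0.07 (adjusted p = 1.5e-05 by edgeR) and -0.85 ± 0.07 (adjusted p = 6.1e-06), respectively.

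The DO chains showed the largest differences of the 10 genes in both comparisons. H2-Oa, the DO alpha chain, had 476, 389 and 409 TPM in young TOM+ cDC2, 510, 456 and 490 TPM in young TOM- DC2 and 937, 994 and 1095 TPM in adults. It was 2.59-fold lower in young TOM+ cDC2 (log2 fold change -1.38 ± 0.08, adjusted p = 3.3e-07 by edgeR) and 2.31-fold lower in young TOM- DC2 (-1.21 ± 0.08, adjusted p = 1e-06). H2-Ob, the DO beta chain, had 128, 96.2 and 109 TPM in young TOM+ cDC2, 144, 111 and 119 TPM in young TOM- DC2 and 345, 344 and 359 TPM in adults. No young library came near an adult one. It was 3.48-fold lower in young TOM+ cDC2 (-1.80 ± 0.09, adjusted p = 1.3e-07 by edgeR) and 3.16-fold lower in young TOM- DC2 (-1.66 ± 0.09, adjusted p = 2.5e-07). DO is best known from B cells, whose markers are given below. H2-Oa overlaps a gene on the opposite strand in the annotation, and counting without strand cannot tell their reads apart.

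The DM chains did not move as one. H2-DMa, the only alpha chain, had 797, 793 and 776 TPM in young TOM+ cDC2, 715, 723 and 711 TPM in young TOM- DC2 and 753, 782 and 783 TPM in adults. Its log2 fold change in young TOM+ cDC2 was -0.10 ± 0.08 (adjusted p = 0.31 by edgeR), and the sign depended on the scaling, being 0.10 with total counts and 0.03 in limma on TPM. In young TOM- DC2 H2-DMa was lower, by -0.27 ± 0.08 (adjusted p = 0.014 by edgeR), a call lost with total counts (-0.05, adjusted p = 0.59) and in limma on TPM (-0.11, adjusted p = 0.11). H2-DMb1, a beta chain, had 896, 987 and 969 TPM in young TOM+ cDC2, 849, 956 and 841 TPM in young TOM- DC2 and 813, 874 and 867 TPM in adults. Its log2 fold changes were 0.02 ± 0.10 (adjusted p = 0.87 by edgeR) and -0.11 ± 0.10 (adjusted p = 0.42), and both changed sign under other settings. H2-DMb2, the neighbouring beta chain gene, had 1707, 1512 and 1557 TPM in young TOM+ cDC2, 1682, 1538 and 1682 TPM in young TOM- DC2 and 2196, 2370 and 2310 TPM in adults, so that every young library was below every adult one. It was lower by -0.69 ± 0.08 (adjusted p = 2.2e-05 by edgeR) and -0.65 ± 0.08 (adjusted p = 4.1e-05). The beta chain genes share sequence: RSEM, which divides shared reads, assigned 1.43 to 1.45 times the reads of the unique count to H2-DMb1 and 1.70 to 1.77 times to H2-DMb2. The H2-DMb2 transcript of 786 bases was also the shortest among the members, and its TPM rests on that length.

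Ciita, the transactivator of these genes, did not pass as lower in young cells, and neither did H2-DMb1. Ciita had 268, 215 and 258 TPM in young TOM+ cDC2, 244, 180 and 261 TPM in young TOM- DC2 and 177, 180 and 203 TPM in adults. The young TOM+ libraries were all above the adult ones, whereas the young TOM- libraries overlapped them. The log2 fold change was 0.26 ± 0.12 in young TOM+ cDC2 (adjusted p = 0.099 by edgeR) and 0.12 ± 0.12 in young TOM- DC2 (adjusted p = 0.47). In young TOM+ cDC2 it passed as higher with total counts (0.46, adjusted p = 0.0071), in limma on log2(TPM + 1) (0.40, adjusted p = 0.047), in a fit of only these groups (0.26, adjusted p = 0.047) and without young TOM- DC2 replicate 2 (0.26, adjusted p = 0.049). In young TOM- DC2 it passed as higher with total counts alone (0.34, adjusted p = 0.036). In no setting was Ciita lower at an adjusted p under 0.05 in either comparison.

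**Figure D2:**
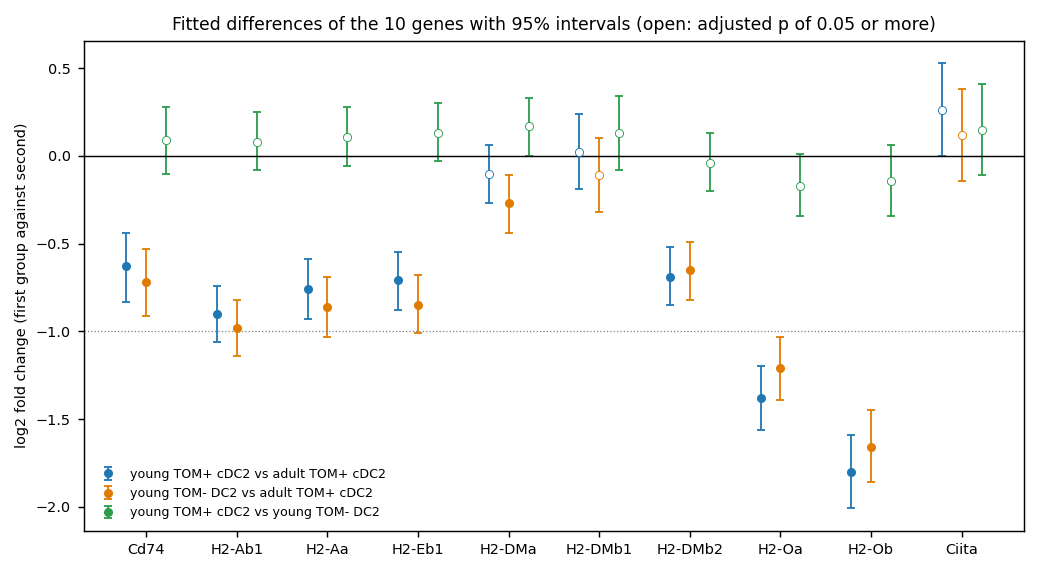
Fitted log2 fold change (vertical axis) of each gene in the 3 comparisons, with 95% intervals. Filled points have an adjusted p under 0.05, open points do not, and the dotted line marks a log2 fold change of -1. H2-Oa and H2-Ob lie below that line in both comparisons with adults, and all 10 points for young TOM+ cDC2 against young TOM- DC2 are open.

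The comparison within young mice asked whether Clec9a history goes with other levels of these genes at the same age. None of the 10 members differed between young TOM+ cDC2 and young TOM- DC2 at an adjusted p under 0.05 in edgeR, and none with a replicate block. At an unadjusted p under 0.05 there was 1, H2-DMa, whose adjusted p was 0.51 by edgeR. Of all genes tested, 1.60% passed here, and 1.18% passed with a log2 fold change beyond 1. The 231 genes that passed became 405 with the replicate block. The log2 fold changes of the members ran from -0.17 for H2-Oa to 0.17 for H2-DMa. Their 95% intervals bound the difference in the fit without the replicate block, which does not use the pairing of the young libraries. They were -0.08 to 0.25 for H2-Ab1, -0.06 to 0.28 for H2-Aa and -0.03 to 0.30 for H2-Eb1. For Cd74 they were -0.10 to 0.28 and for Ciita -0.11 to 0.41. For the DO chains they were -0.34 to 0.01 (H2-Oa) and -0.34 to 0.06 (H2-Ob). Differences larger than these were thus not seen, but smaller ones are not shown to be absent.

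The order of levels in TPM was the same in both young groups: Cd74, H2-Ab1, H2-Aa, H2-Eb1, H2-DMb2, H2-DMb1, H2-DMa, H2-Oa, Ciita and H2-Ob. In adults H2-Oa stood above H2-DMb1 and H2-DMa, and H2-Ob above Ciita. The library ranges of neighbours in these orders did not overlap in any of the 3 groups. Among all genes ranked by TPM, H2-Ob moved from places 1220 to 1819 in the young libraries to 406 to 437 in the adult ones, and H2-Oa from 271 to 400 up to 103 to 124. H2-DMa stayed between places 157 and 188 throughout.

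Ratios within a library do not depend on scaling between libraries, and they show the unequal changes directly. With 3 libraries against 3, the exact two-sided permutation test cannot give a p below 0.1, or below 0.14 after Benjamini-Hochberg adjustment over the 18 ratio comparisons made, so that only the separation of the libraries can be described. H2-DMa to H2-Oa was 1.68, 2.04 and 1.90 in young TOM+ cDC2, 1.40, 1.59 and 1.45 in young TOM- DC2 and 0.804, 0.787 and 0.715 in adults. It was 2.43-fold higher in young TOM+ cDC2 than in adults and 1.93-fold higher in young TOM- DC2, with no overlap (exact permutation p = 0.1 each). The young groups did not overlap either, TOM+ cDC2 being 1.26-fold above TOM- DC2 (exact permutation p = 0.1). The beta chains gave a similar picture: H2-DMb1 and H2-DMb2 summed were 20.4, 26.0 and 23.2 times H2-Ob in young TOM+ cDC2, 17.6, 22.5 and 21.2 times in young TOM- DC2 and 8.73, 9.42 and 8.85 times in adults. The young groups overlapped here.

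Smaller shifts were seen among the abundant genes. Cd74 to the sum of the classical chains was 1.18, 1.28 and 1.21 in young TOM+ cDC2, 1.19, 1.26 and 1.27 in young TOM- DC2 and 1.12, 1.07 and 1.03 in adults. Every young library was above every adult one, by 1.14-fold and 1.16-fold on average (exact permutation p = 0.1 each). H2-Aa to H2-Ab1 averaged 0.730 ± 0.0168, 0.718 ± 0.0194 and 0.658 ± 0.0253 (SD, n = 3) in the same order of groups. H2-Eb1 to H2-Ab1 averaged 0.445 ± 0.00912, 0.430 ± 0.022 and 0.390 ± 0.0124. In both the young libraries lay above the adult ones, since H2-Ab1 differed most among the classical chains. H2-DMb1 to H2-DMb2 was 0.525, 0.653 and 0.622 in young TOM+ cDC2, 0.505, 0.621 and 0.500 in young TOM- DC2 and 0.370, 0.369 and 0.375 in adults, where the spread was the smallest.

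**Figure D3:**
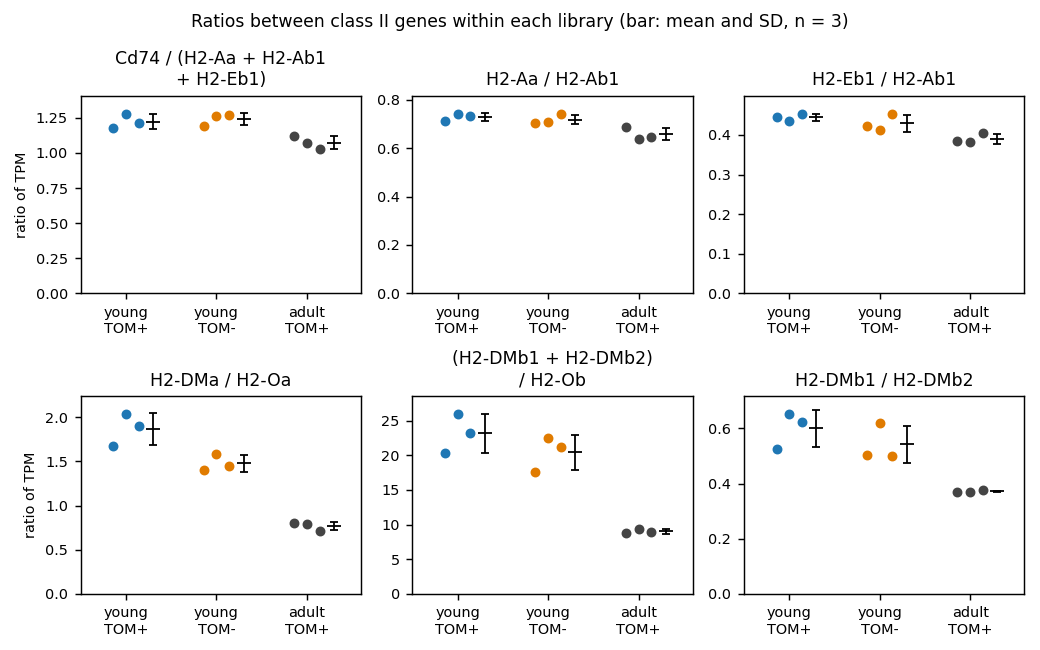
Ratios of TPM between class II genes within each library (vertical axes, from 0), with points for libraries and bars for the mean and SD of 3. Both ratios of DM to DO are lower in all adult libraries than in all young ones, with means of 0.769 against 1.87 and 1.48 for the alpha chains, and the ratios among Cd74 and the classical chains shift by less.

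RSEM's mean transcript length weights the transcripts of a gene by their estimated abundance, and is only an indirect estimate of which were used. It could vary only for Cd74, with 2 RefSeq transcripts, and Ciita, with 3. For Cd74 it was 1257.73, 1254.42 and 1254.05 bases in young TOM+ cDC2, 1257.67, 1254.79 and 1254.04 bases in young TOM- DC2 and 1267.58, 1271.26 and 1265.79 bases in adults. By this estimate the mean length was larger in all adult libraries than in all young ones, and the young groups overlapped. For Ciita the mean was 5292.75 ± 6.92 bases (SD, n = 3) in young TOM+ cDC2, 5283.40 ± 6.57 in young TOM- DC2 and 5308.67 ± 5.59 in adults. All young values, up to 5300.41 bases, were below the lowest adult one of 5302.42 bases. No test was made on lengths.

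Apart from Cd74 on chromosome 18 and Ciita on chromosome 16, the members lie within one stretch of chromosome 17, from H2-Oa at chr17:34092379-34095234 to H2-Eb1 at chr17:34305867-34316674 (RefSeq on GRCm38.p6). Genes of other function lie between or, as Btnl2 does, just beyond them, and they give the local background. Of 6 such genes, 3 were lower in young TOM+ cDC2 and 3 in young TOM- DC2, and the rest did not pass. The shares lower over all genes tested were 19.5% and 16.9%. Those lower were Tap1 and Tap2, which carry peptides for class I into the endoplasmic reticulum, and Psmb9, an immunoproteasome subunit. Tap1 had a log2 fold change of -0.64 ± 0.09 in young TOM+ cDC2 (adjusted p = 9e-05 by edgeR) and -0.84 ± 0.09 in young TOM- DC2 (adjusted p = 1.6e-05). Tap2 in young TOM+ cDC2 (-0.36 ± 0.09, adjusted p = 0.0082 by edgeR) lost its call with total counts (-0.16, adjusted p = 0.15). Psmb8, another immunoproteasome subunit, lies between Tap1 and Tap2 and had values of 0.10 ± 0.08 (adjusted p = 0.35 by edgeR) and -0.06 ± 0.08 (adjusted p = 0.59). Brd2, whose annotated span overlaps that of H2-DMa, had 0.17 ± 0.15 (adjusted p = 0.40 by edgeR) and 0.08 ± 0.15 (adjusted p = 0.70). Differences thus varied from gene to gene along the region, and the values of H2-Oa and H2-Ob were below those of their nearest listed neighbours.

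**Figure D4:**
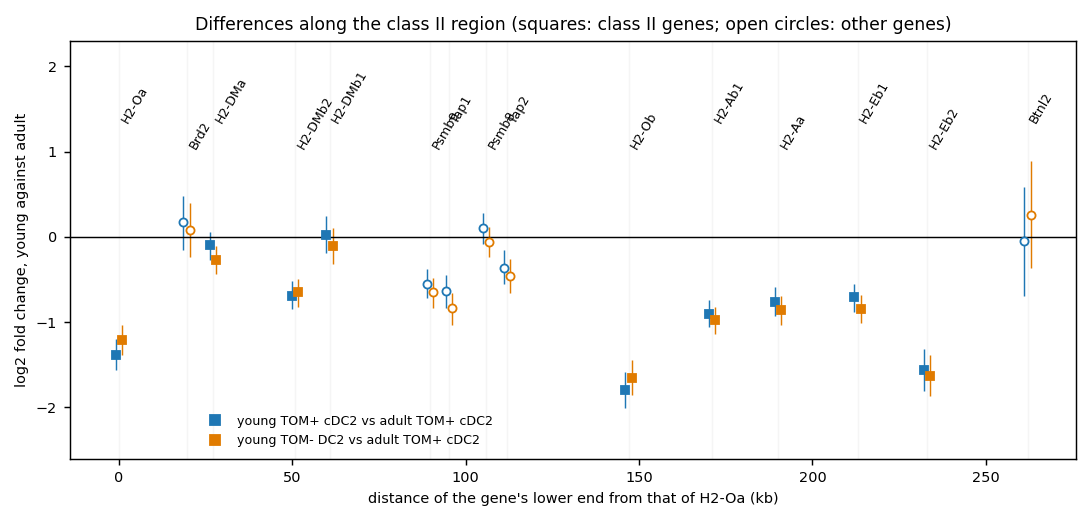
Log2 fold change, young against adult, with 95% intervals (vertical axis) for genes of the class II region by distance from H2-Oa in kb (horizontal axis). Squares are class II genes and open circles other genes. H2-Oa, H2-Ob and H2-Eb2 lie lowest, whereas H2-DMb1, Psmb8 and Brd2 lie at about 0.

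Other genes of the class II pathway were taken as a list of 27 measured genes, chosen by function. In young TOM+ cDC2 13 of 27 were lower than in adults and 2 higher, where 19.5% and 21.0% of all genes were. In young TOM- DC2 13 were lower and 3 higher, against 16.9% and 19.4%. The medians were -0.44 and -0.35 on the log2 scale. With total counts or in limma on TPM the genes lower and higher became 12 and 3 in young TOM+ cDC2 and 10 and 5 in young TOM- DC2. The higher genes fell to 1 in young TOM- DC2 without young TOM- DC2 replicate 2 or 3 or adult replicate 1 or 3, and to 1 in young TOM+ cDC2 without a filter and when any 1 of the young TOM+ cDC2 replicates, young TOM- DC2 replicate 3 or adult replicate 1 or 2 was left out.

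Among other chain genes, H2-Eb2, a little-studied beta chain gene next to H2-Eb1, had 35.9, 33.7 and 29.8 TPM in young TOM+ cDC2, 36.6, 33.5 and 27.2 TPM in young TOM- DC2 and 92.5, 76.5 and 99.6 TPM in adults. It was 2.95-fold lower (log2 fold change -1.56 ± 0.11, adjusted p = 1.1e-06 by edgeR) and 3.09-fold lower (-1.63 ± 0.11, adjusted p = 1.2e-06), while its level was far below that of H2-Eb1 in every library. H2-Ea-ps, the I-E alpha gene that is inactive in C57BL/6, had 1.35 to 7.09 TPM over all libraries and did not pass in any comparison.

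Of the 7 factors that bind class II promoters, 2 were lower in both young groups. Over all genes tested, 19.5% were lower in young TOM+ cDC2 and 16.9% in young TOM- DC2. Rfx5, the DNA-binding subunit of the RFX complex at the X box, had 22.5, 15.5 and 17.5 TPM in young TOM+ cDC2, 25.7, 15.6 and 17.2 TPM in young TOM- DC2 and 33.7, 30.6 and 36.4 TPM in adults. Its log2 fold changes were -0.98 ± 0.15 (adjusted p = 0.00028 by edgeR) and -0.94 ± 0.15 (adjusted p = 0.00048). Rfxank, another RFX subunit, was lower by -0.44 ± 0.11 (adjusted p = 0.0062 by edgeR) and -0.40 ± 0.11 (adjusted p = 0.012), calls that were lost with total counts and in limma on TPM. Nfyb, a subunit of NF-Y at the Y box, was higher in young TOM+ cDC2 by 0.26 ± 0.09 (adjusted p = 0.035 by edgeR). The call was lost without a filter on low counts (adjusted p = 0.052 by edgeR) and on RSEM expected counts (adjusted p = 0.072 by edgeR). It was also lost without any 1 of the young TOM+ cDC2 replicates, young TOM- DC2 replicate 3, or adult replicate 1 or 2. Rfxap, Nfya, Nfyc and Creb1 did not pass in any comparison.

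The factors known to act on Ciita or its promoters were lower in young cells, although Ciita was not. All 7 were lower in young TOM+ cDC2, against 19.5% of all genes tested. In young TOM- DC2 6 of the 7 were lower, against 16.9%, the exception being Irf4 (-0.59 ± 0.22, adjusted p = 0.053 by edgeR). Not all of them switch Ciita on, since Prdm1 encodes a repressor of it. Irf1, an interferon-induced activator, was lower by -0.98 ± 0.10 (adjusted p = 9.6e-06 by edgeR) and -0.92 ± 0.10 (adjusted p = 2e-05). Spi1, which encodes the myeloid factor PU.1, was lower by -0.47 ± 0.08 (adjusted p = 0.00076 by edgeR) and -0.58 ± 0.08 (adjusted p = 0.0002). Irf4 in young TOM+ cDC2 (-0.75 ± 0.22, adjusted p = 0.017 by edgeR) lost its call without adult replicate 2 (-0.63). Irf8, a factor of dendritic cell development, had 20.3, 26.4 and 24.2 TPM in young TOM+ cDC2, 44.2, 39.1 and 41.3 TPM in young TOM- DC2 and 47.1, 45.2 and 49.2 TPM in adults. Irf8 was lower in young TOM+ cDC2 than in young TOM- DC2 (-0.77 ± 0.11, adjusted p = 0.0027 by edgeR), as only 1 other of the 27 genes was. Its call against adults in young TOM- DC2 (-0.34 ± 0.11, adjusted p = 0.033 by edgeR) was lost with total counts (-0.11, adjusted p = 0.41), in limma on TPM (-0.18, adjusted p = 0.18) and when any of the 6 libraries compared was left out.

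Proteases and other processing genes went both ways. Ctss, the cathepsin that makes the last cuts in the invariant chain, had 1295, 1262 and 1245 TPM in young TOM+ cDC2, 1258, 1255 and 1144 TPM in young TOM- DC2 and 1597, 1665 and 1593 TPM in adults. It was lower by -0.48 ± 0.08 (adjusted p = 0.00037 by edgeR) and -0.57 ± 0.08 (adjusted p = 0.00014). Lgmn, an asparagine-specific endopeptidase, was lower by -0.63 ± 0.10 (adjusted p = 0.00038 by edgeR) and -0.54 ± 0.10 (adjusted p = 0.0014). Ctsd, an endosomal aspartic protease, was higher in young cells, by 0.49 ± 0.12 (adjusted p = 0.0062 by edgeR) and 0.75 ± 0.12 (adjusted p = 0.00043). Ctsl, which cuts the invariant chain in thymic epithelium, had 15.8, 19.8 and 19.7 TPM in young TOM+ cDC2, 28.4, 40.0 and 44.4 TPM in young TOM- DC2 and 13.4, 25.2 and 21.3 TPM in adults. It was lower in young TOM+ cDC2 than in young TOM- DC2 (-1.02 ± 0.23, adjusted p = 0.046 by edgeR). The call was lost on RSEM expected counts and in limma on TPM. It was also lost without any 1 of the young TOM+ cDC2 replicates, young TOM- DC2 replicate 2 or 3, or adult replicate 3. Against adults Ctsl was higher in young TOM- DC2 (0.76 ± 0.23, adjusted p = 0.02 by edgeR). That call was lost without young TOM- DC2 replicate 2 or 3 or adult replicate 1 or 3. Ifi30, the endosomal thiol reductase, had 739 to 836 TPM over all libraries and did not pass in any comparison.

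Genes of class II turnover were led by Cd83, which encodes a surface protein known to oppose the removal of class II by the ubiquitin ligase MARCH1. Cd83 had 1438, 1368 and 1564 TPM in young TOM+ cDC2, 1713, 1782 and 1899 TPM in young TOM- DC2 and 4039, 4063 and 4831 TPM in adults. It was 3.21-fold lower in young TOM+ cDC2 (log2 fold change -1.68 ± 0.10, adjusted p = 2.5e-07 by edgeR) and 2.66-fold lower in young TOM- DC2 (-1.41 ± 0.10, adjusted p = 1e-06). March1 had a value of -0.18 ± 0.09 in young TOM+ cDC2 (adjusted p = 0.13) and, in young TOM- DC2, was lower by -0.35 ± 0.09 (adjusted p = 0.0087 by edgeR), a call lost with total counts (-0.13, adjusted p = 0.31) and in limma on TPM (-0.20, adjusted p = 0.19). March8 stayed under 1 TPM in every library.

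**Figure D5:**
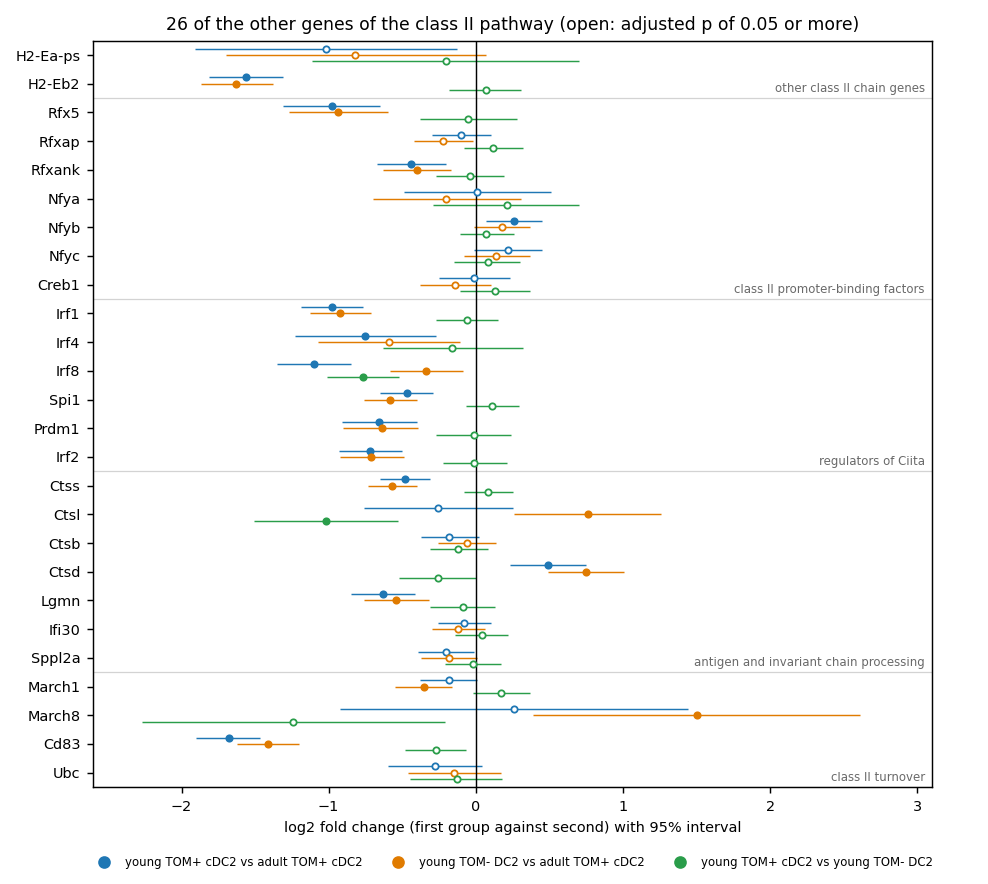
Log2 fold change with 95% intervals (horizontal axis) of 26 of the other genes of the pathway, grouped by function, in the 3 comparisons. Filled points have an adjusted p under 0.05. The regulators of Ciita and the other chain genes lie to the left of 0 in both comparisons with adults.

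Markers of other cells and of cell state were measured beside these genes. The 10 cDC2 markers, which fit the label, were all detected and summed to 1857 to 2165 TPM in young TOM+ cDC2, 1762 to 2068 TPM in young TOM- DC2 and 1949 to 2102 TPM in adults. Singly they differed with age: 6 were lower and 3 higher in each young group than in adults (edgeR, adjusted p under 0.05). Over all genes tested, 19.5% were lower and 21.0% higher in young TOM+ cDC2. In young TOM- DC2 the shares were 16.9% and 19.4%. The 12 B cell markers, of interest for DO, summed to 110 to 161, 132 to 197 and 191 to 199 TPM, so that they were higher in adults than in young TOM+ cDC2. Most of that sum came from Cd22 and Cd79b, and the defining B cell genes Pax5, Ebf1 and Cd79a did not exceed 1.6 TPM in any library. Most markers of mature and migratory dendritic cells were also lower in young cells: the 8 of them summed to 711 to 772 TPM in young TOM+ cDC2, 793 to 936 TPM in young TOM- DC2 and 2354 to 3490 TPM in adults. Of these, 5 were lower in young TOM+ cDC2 and 6 in young TOM- DC2, against 19.5% and 16.9% of all genes tested. They were led by Ccr7 (-2.66 ± 0.17, adjusted p = 5.2e-07 by edgeR, and -2.23 ± 0.17, adjusted p = 2.2e-06), the receptor that guides dendritic cells to lymph nodes. Ccl17, a chemokine, went the other way in young TOM+ cDC2 (2.91 ± 0.87, adjusted p = 0.018 by edgeR) and had a value of 2.25 ± 0.90 in young TOM- DC2 (adjusted p = 0.069). Esam, a marker of a subset of adult splenic cDC2, had 14.4 to 27, 23.2 to 37.9 and 72.6 to 90.7 TPM. The part of any of these in the differences of the class II genes was not tested.

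The genes most like H2-Ab1 over the 9 libraries, among the 10112 genes whose count averaged 50 or more, were Tspan13 (Pearson's r = 0.994 of log2 normalised counts), Ctss (0.991) and Il2rg (0.990). Those most like Ciita were Sik2 (0.940), Lsm12 (0.887) and Ctnnbl1 (0.883). Among the members, r was 0.995 between H2-Ab1 and H2-Aa and 0.995 between H2-Oa and H2-Ob, but 0.156 between H2-DMb1 and H2-DMb2 and -0.515 between H2-Ab1 and Ciita. These values are descriptive, since the libraries share an age difference that alone brings such patterns together.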

How the data were processed

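Messenger RNA of 9 libraries was measured, 3 in each of 3 groups taken from the sample labels. According to the methods, cells were sorted into lysis buffer, cDNA was made with SMARTseq v4 and short single-end reads were aligned to mm10 with STAR. The authors deposited STAR's raw read counts for each gene, and the unstranded column was used, the forward strand holding 49.99% to 50.14% of stranded counts. STAR's 4 summary lines were kept out of all totals, and reads not assigned to genes were 26.14% to 31.63%. The authors also deposited RSEM expected counts on RefSeq transcripts, which divide reads among matching transcripts and were rounded where tested. The deposited TPM are scaled by transcript length and to a fixed total per library, and served for levels and ratios. The deposited FPKM were not used. The deposited RSEM lengths are means over the transcripts of a gene. No version of STAR or RSEM is given in the sources used here.

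Reads counted on genes were 12783252 to 22809401 per library, and every member had at least 2643 reads in each. TMM factors were 0.894 to 0.928 in adults and 1.03 to 1.08 in young groups. No libraries of a group were copies of each other (chi-square per gene of 9.18 or more). The methods call the libraries biological replicates.

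Counts were tested in R 4.3.3 with edgeR 4.0.16 (quasi-likelihood test, TMM, all libraries in 1 fit, average count of 1 or more, Benjamini-Hochberg adjustment over all 14452 genes). Calls were read at an adjusted p under 0.05, and also with a log2 fold change beyond 1, both taken from the study's methods. The fit was tested on simulated data. Ratios were compared by exact two-sided permutation tests (scipy 1.17.1). Alternatives were DESeq2 1.42.0 with apeglm 1.24.0, upper-quartile factors, total counts, no filter, an average count of 10 or more, RSEM expected counts, limma 3.58.1 on log2(TPM + 1) and log2(TPM + 0.1), only the groups compared, a replicate block, each library left out, and STAR counts per effective length for ratios. File names carry numbers that 3 libraries of each young group share. Deviations from group means of same-numbered young libraries correlated at 0.746, 0.501 and 0.517 over 10112 genes, so these were taken as pairs, whereas young and adult libraries of the same number were not (-0.003 to 0.157). In comparisons with adults the block therefore rests on numbers that are not taken to pair the libraries.

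The members and the gene lists were chosen with earlier results of these data known. Named genes were the members, all genes of the lists, and the 3 genes most correlated with H2-Ab1 and with Ciita. Promoter windows and positions came from RefSeq on GRCm38.p6, the assembly on which mm10 is built. Interleaved genes, turnover genes and markers are named by the symbols in the files. Values of 2 listed genes are not reported here.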

Additional observations from a re-analysis of the deposited data

Results flagged for a closer look

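Irf8 and Ctsl, both in the list of other class II pathway genes, differed between the young groups by the test of the difference itself, so that their distances to the same adult libraries differ too. Irf8 was lower in young TOM+ cDC2 than in young TOM- DC2 by a log2 fold change of -0.77 (adjusted p = 0.0027 by edgeR), with 20.3 to 26.4 TPM against 39.1 to 44.2 TPM and no overlap. Ctsl was lower by -1.02 (adjusted p = 0.046 by edgeR), with 15.8 to 19.8 TPM against 28.4 to 44.4 TPM. Macrophage markers, summed over 7 genes, were 178 to 228 TPM in young TOM+ cDC2 and 291 to 353 TPM in young TOM- DC2, and their part in the Ctsl value was not tested. No member met this condition, and groups of 3 libraries are too small for a test of single outlying libraries.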

How the results depend on the processing

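Of the 7 members lower in young TOM+ cDC2 and the 8 in young TOM- DC2, all but H2-DMa stayed lower at an adjusted p under 0.05 in every alternative. With total counts in place of TMM the median log2 fold change of all genes moved from 0.05 to 0.25 and from 0.07 to 0.29, and genes higher and lower in young TOM+ cDC2 went from 3039 and 2822 to 4790 and 1828 (in young TOM- DC2, from 2809 and 2438 to 5010 and 1468). Only 1 member, H2-Ob, then passed a log2 fold change of 1 in young TOM- DC2. H2-DMa in young TOM+ cDC2 turned to 0.10 with total counts and to 0.03 in limma with either pseudocount. H2-DMb1 turned to -0.01 with a filter at an average count of 10 in young TOM+ cDC2, and in young TOM- DC2 to 0.11 with total counts and 0.05 in limma with either pseudocount. Leaving out 1 library, H2-DMb1 ranged from -0.03 to 0.10 in young TOM+ cDC2, H2-DMb2 from -0.06 to 0.01 between the young groups, and Ciita in young TOM- DC2 from -0.03 (without young TOM- DC2 replicate 3) to 0.24. H2-DMa in young TOM- DC2 lost its call without young TOM- DC2 replicate 1 (-0.23). The pathway genes differing between the young groups were 1 instead of 2 on RSEM expected counts and in limma with either pseudocount, and 1 to 2 when 1 library was left out, Ctsl being the one lost. The members' summed TPM, at -0.58 and -0.64 on the log2 scale, became -0.52 and -0.58 with STAR counts per effective length. The causes were not tested. The replicate block, which for adults rests on shared file numbers not taken as pairs, changed no call of a member but that of Ciita in young TOM+ cDC2 (0.28, adjusted p = 0.01 by edgeR) and, among the other genes that passed, that of March8 in young TOM- DC2 (adjusted p = 0.071).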

Other observations

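Class I genes, measured beside the class II genes, were lower in young cells as well. All 6 of those listed were lower in young TOM+ cDC2 and in young TOM- DC2, with medians of -1.18 and -1.20 on the log2 scale, and none differed between the young groups (edgeR, adjusted p under 0.05). Over all genes tested, 19.5% and 16.9% were lower, and 1.60% differed between the young groups. H2-K1, a classical class I heavy chain, had 1126 to 1301 TPM in young TOM+ cDC2, 1260 to 1382 TPM in young TOM- DC2 and 3161 to 3298 TPM in adults. Its log2 fold changes were -1.55 ± 0.07 (adjusted p = 6e-08 by edgeR) and -1.46 ± 0.07 (adjusted p = 1.2e-07). Nlrc5, the transactivator of class I genes and the counterpart of Ciita, had 7.3 to 9.4 TPM in young TOM+ cDC2, 7.0 to 9.4 TPM in young TOM- DC2 and 27.2 to 34.7 TPM in adults, and was 4.17-fold and 4.31-fold lower (-2.06 ± 0.13, adjusted p = 4.8e-07, and -2.11 ± 0.13, adjusted p = 5.1e-07 by edgeR). Ciita itself had values of 0.26 ± 0.12 and 0.12 ± 0.12 and did not pass in either comparison.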
